A study of Mus musculus with 11 samples.

Results

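In all, 10 genes that mark endothelial cells were followed in the aorta of old mice given nitrate. The genes were taken by name from the annotation of the array as Pecam1, Cdh5, Vwf, Tek, Tie1, Kdr, Flt1, Eng, Emcn and Esam and not by a threshold on their values, though earlier results of these data were known when the set was chosen. They have 11 of the 55681 probes of the array, since Kdr has 2 probes and each other gene has 1. The array carries 36413 different names in all.

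The samples were descending aortas of male C57BL/6 mice aged 20 months. The old nitrate treated mice had 1 g/L sodium nitrate (NaNO3) in their drinking water for 8 weeks. The old control mice are labelled only as control, and their labels describe the arrays as a re-analysis of earlier samples. The methods state that sodium chloride of equal concentration served as control, which the labels do not mention. Files of 5 nitrate arrays and 6 control arrays were used, each from 1 mouse. The methods give 6 mice for each group, and 1 of the nitrate group was not analysed here.

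The vessels were flushed and cleaned of surrounding fat before RNA was taken from the whole wall, so the values come from a mixture of endothelial, smooth muscle, connective tissue and other cells. In such a mixture, fewer endothelial cells and less RNA per endothelial cell cannot be told apart. Each array measured RNA in 1 color on spots of DNA probes, and a value is the log2 of a background-subtracted spot intensity after quantile normalization over the 11 arrays. Differences are given as nitrate minus control on this scale. Probes differ in how well they bind, so values are compared between mice for 1 probe and never between probes.

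The 11 arrays were alike, with correlations across probes between 0.982 and 0.995. The array of control 1 was the least like the rest, with a mean correlation of 0.985. Each array had 59305 spots, of which no more than 186 carried an outlier flag and were dropped, and saturation was absent. The arrays lay on 3 slides that each held both groups. The controls shared 1 slide column that was free of nitrate arrays, so slide column and treatment cannot be told apart.

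Endothelial cells form the inner lining of every blood vessel. They are held together by the adhesion proteins Pecam1, the junction cadherin Cdh5 (VE-cadherin) and Esam, and carry the receptors through which vascular growth factors act. Kdr and Flt1 bind vascular endothelial growth factors (VEGF), Tek and Tie1 form the receptor system of the angiopoietins, and Eng is an accessory receptor for ligands of the TGF-beta family. Vwf, the clotting glycoprotein that endothelial cells store and release, and Emcn, a sialomucin of the cell surface, complete the set. Nitrate from the diet can be reduced to nitrite and nitric oxide, and nitric oxide made by the endothelium relaxes the vessel.

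Sequences of 4 of the probes are given as the array files hold them, 5′ to 3′. The pair for Kdr is shown because its probes gave different results in the same mice. The first Kdr probe starts at base 4291 of the transcript named in the files and the second at base 5377, which lies 1086 bases further toward the 3′ end. In the mm9 assembly named in the files, both are on the minus strand, at chr5:76330395-76330454 and chr5:76329309-76329368. The bases shown for the second probe are the first 30 of its 60, and no base is marked in either.
Kdr, first probe: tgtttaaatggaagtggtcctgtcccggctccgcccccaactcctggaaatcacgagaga
Kdr, second probe: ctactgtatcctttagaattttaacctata
The first probe had a GC content of 55% and the second, over its whole length, of 35%.

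Tek and Tie1 are related receptors, and their probes lie in stretches that resemble each other. Both are on chromosome 4 in mm9, with Tek at chr4:94540624-94540683 on the plus strand and Tie1 at chr4:118144132-118144191 on the minus strand. Capitals mark the bases that are equal in both when the probes are set against each other without gaps.
Tek: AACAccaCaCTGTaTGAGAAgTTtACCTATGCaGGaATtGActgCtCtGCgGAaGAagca
Tie1: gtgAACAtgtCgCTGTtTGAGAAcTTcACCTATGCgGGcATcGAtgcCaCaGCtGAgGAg
Of the 57 bases that faced each other, 39 were equal (68.4%), and the longest unbroken stretch was of 8 bases. In no other of the 55 pairs of member probes were more than 26 bases equal. Whether RNA of one gene bound to the probe of the other was not tested.

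The other probes also lie in transcripts of their genes by the files' own annotation, and whether they fall in coding or untranslated exons was not determined. In mm9, the adhesion genes are measured at chr11:106540864-106540923 for Pecam1 (minus strand), at chr8:106668159-106668218 for Cdh5 (plus strand) and at chr9:37345795-37345854 for Esam (plus strand). The receptors Flt1 and Eng are measured at chr5:148373791-148373850 (minus strand) and chr2:32537268-32537327 (plus strand), and Vwf and Emcn at chr6:125636551-125636610 and chr3:137086389-137086448 (both plus strand).

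All 11 probes were well above background on every array and passed the detection rule. By the brightest probe of each gene, 5 of the 10 genes were higher and 5 were lower in old nitrate treated mice, with a median difference of -0.04 beside 0.01 over all 23633 detected probes. None of the 10 genes passed the threshold of an unadjusted limma P value under 0.05 with a fold change above 1.2, which 9.00% of all detected probes passed. Vwf alone had an unadjusted P value under 0.05, beside 14.4% of all detected probes. Of the 11 probes, the second Kdr probe passed both thresholds. No member passed Benjamini-Hochberg adjustment over all detected probes, as 0.0127% of them did, and the smallest adjusted limma P value of a member was 0.215. For no member were the groups without overlap, as they were for 2.75% of detected probes.

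**Figure D1:**
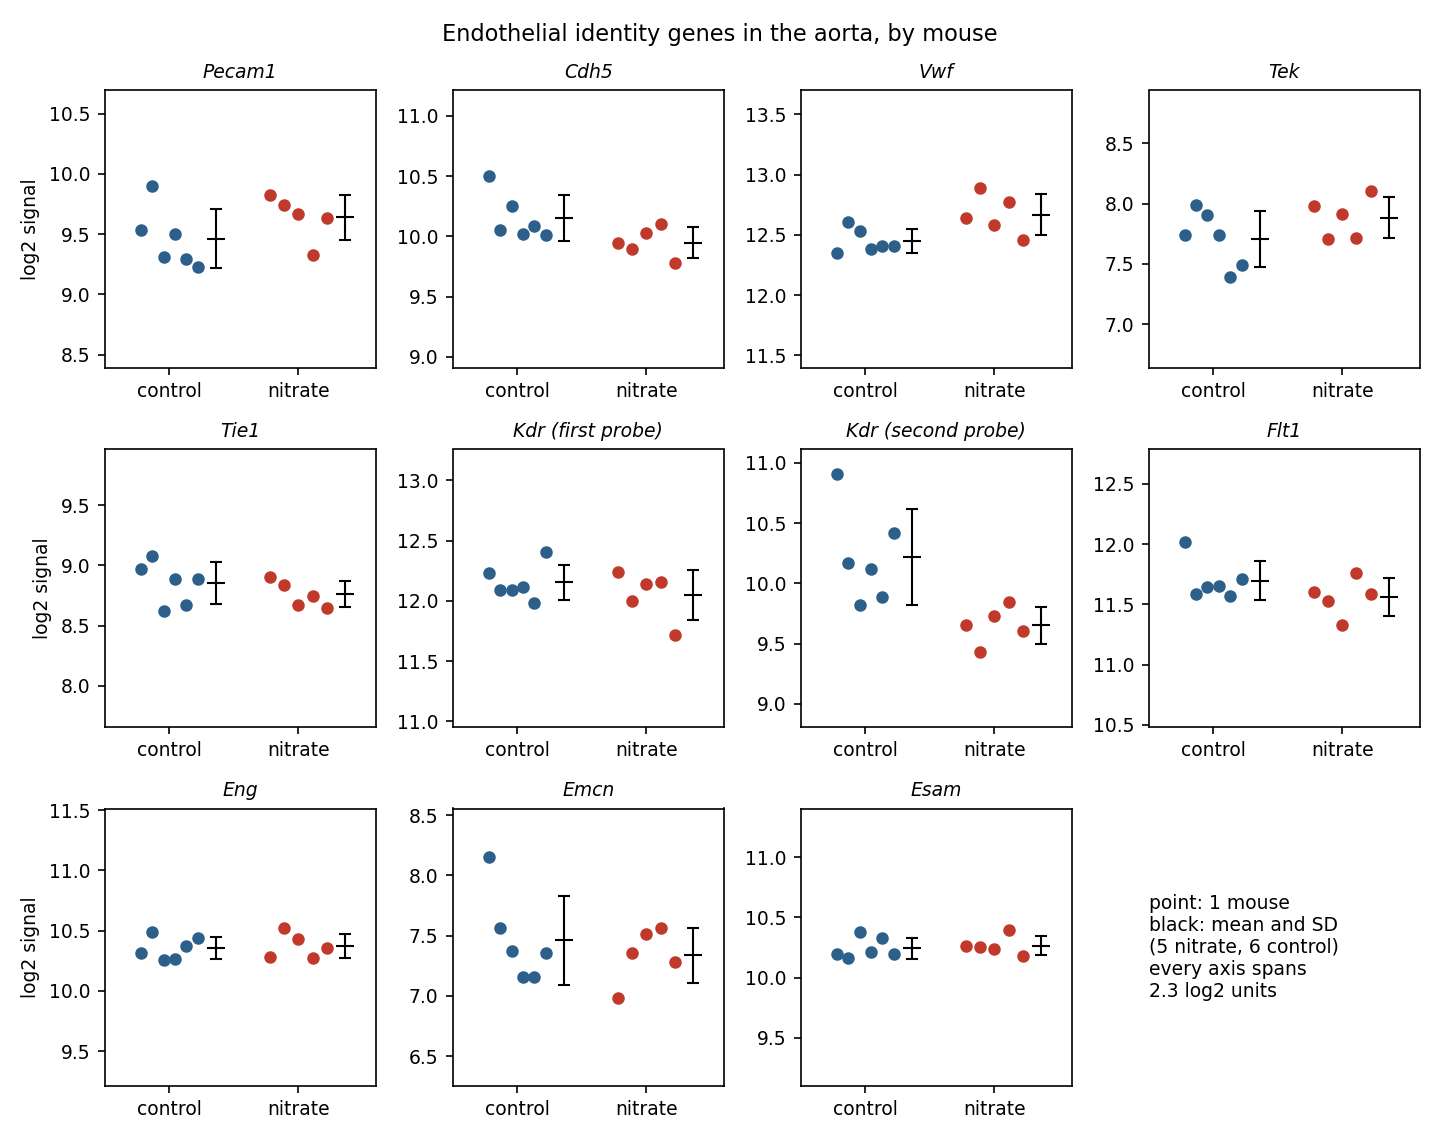
Log2 signal (vertical axis) of the 11 probes in 6 control and 5 nitrate mice (horizontal axis), 1 panel for each probe, with 1 point for each mouse and black bars for the mean and SD. Every axis spans the same range, and the groups overlapped in every panel, with the widest gap between means for the second Kdr probe.

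Among the adhesion and junction genes, no difference passed the threshold. Cdh5, the cadherin of endothelial junctions, measured 9.94, 9.89, 10.03, 10.10 and 9.78 in nitrate mice 1 to 5, and from 10.01 to 10.50 with a median of 10.07 in controls. All but 2 of the nitrate mice were below the lowest control, and control 1 was the highest mouse. The difference was -0.20 with a 95% interval from -0.42 to 0.01 (9.95 ± 0.13, SD, n = 5, against 10.15 ± 0.19, SD, n = 6), and an unadjusted limma P value of 0.0620 (exact permutation test, two-sided, 0.0649). Within slides the difference was -0.36, 0.01 and -0.23, and without control 1 it was -0.14 (limma, unadjusted P value 0.106).

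Pecam1, an adhesion molecule of endothelial cells that platelets and leukocytes also carry, measured 9.82, 9.74, 9.66, 9.33 and 9.64 in the nitrate mice and from 9.23 to 9.89 with a median of 9.41 in controls. The highest single value was that of control 2, while 4 of the 5 nitrate mice lay above 5 of the 6 controls. The difference was 0.18 with a 95% interval from -0.10 to 0.45 (limma, unadjusted P value 0.185; exact permutation test, 0.208).

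Esam, an adhesion molecule of tight junctions, differed by 0.02 with a 95% interval from -0.12 to 0.16, and the nitrate mice lay between 10.18 and 10.40 and the controls between 10.16 and 10.37. For Esam this interval leaves out changes as large as a fold change of 1.2 in either direction. The same held for Eng, the accessory receptor for TGF-beta ligands, whose difference was 0.02 with a 95% interval from -0.14 to 0.17. Eng lay between 10.28 and 10.52 in the nitrate mice and between 10.26 and 10.49 in controls. The SDs of both genes within the groups lay between 0.0801 and 0.103.

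Vwf measured 12.64, 12.89, 12.58, 12.77 and 12.45 in the nitrate mice and from 12.35 to 12.61 with a median of 12.41 in controls. The 3 highest mice had received nitrate, and nitrate mice 3 and 5 lay within the range of the controls. The difference was 0.22 with a 95% interval from 0.03 to 0.41 (12.67 ± 0.17, SD, n = 5, against 12.45 ± 0.10, SD, n = 6), which is a fold change of 1.16 and below the threshold of 1.2. The unadjusted limma P value was 0.0256, the adjusted P value was 0.298, and the exact permutation test gave 0.0238 (two-sided, smallest possible 0.00216). The difference was 0.29, 0.19 and 0.14 within the 3 slides, and 0.21 with the slide as a block (exact permutation within slides, 0.0463). Without nitrate mouse 2 it was 0.16 with an unadjusted limma P value of 0.0751. Vwf is also made by megakaryocytes, and of 6 platelet and megakaryocyte markers only Pf4 and Gp9 were detected, at differences of 0.04 and 0.51 with unadjusted limma P values of 0.783 and 0.133. Their part in the difference of Vwf was not tested.

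Emcn measured 6.98, 7.35, 7.51, 7.56 and 7.28 in the nitrate mice and from 7.16 to 8.15 with a median of 7.36 in controls. The medians of both groups were nearly equal (7.35 and 7.36), and control 1 lay above every other mouse. The difference was -0.12 with a 95% interval from -0.50 to 0.26, the widest among the genes' brightest probes, and without control 1 it was 0.02. A fall as large as a fold change of 1.2 lies inside the interval of Emcn, as it does for Cdh5, Tie1, Flt1 and the first Kdr probe.

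For the angiopoietin receptors, neither difference passed the test. Tek, the receptor that binds the angiopoietins, measured 7.98, 7.70, 7.91, 7.72 and 8.11 in the nitrate mice and from 7.39 to 7.99 with a median of 7.74 in controls. The difference was 0.17 with a 95% interval from -0.09 to 0.43 (limma, unadjusted P value 0.172). Tie1, its partner receptor, measured 8.90, 8.84, 8.67, 8.75 and 8.65 in the nitrate mice and from 8.62 to 9.08 with a median of 8.89 in controls. Its difference was -0.09 with a 95% interval from -0.29 to 0.11 (limma, unadjusted P value 0.343). These are the probes with the shared bases, and their differences had opposite signs.

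Flt1, the VEGF receptor that also exists as a soluble form, measured 11.60, 11.53, 11.33, 11.76 and 11.58 in the nitrate mice and from 11.57 to 12.02 with a median of 11.65 in controls. Control 1 lay apart from the other controls, which reached 11.71. The difference was -0.14 with a 95% interval from -0.35 to 0.08 (limma, unadjusted P value 0.185), and without control 1 it was -0.07.

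**Figure D2:**
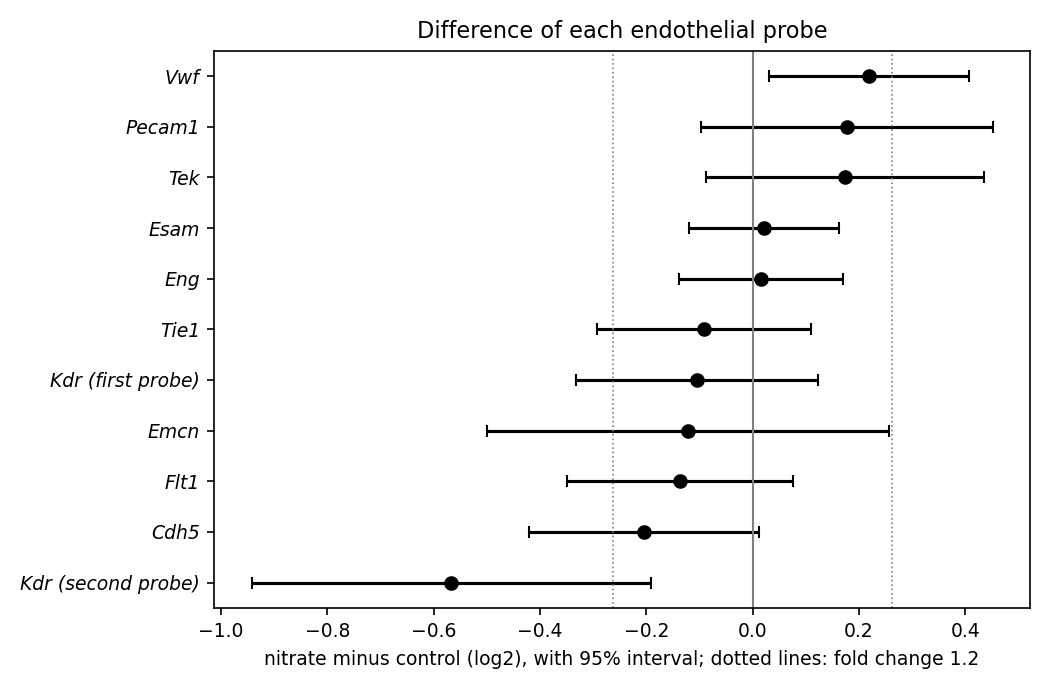
Difference between nitrate and control means (log2, horizontal axis) for the 11 probes (vertical axis), with bars for the 95% limma interval and dotted lines at a fold change of 1.2. Intervals of Vwf and of the second Kdr probe exclude 0, and the 2 Kdr probes lie at -0.10 and -0.57.

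Kdr, the main signaling receptor for VEGF on endothelial cells, gave 2 answers. The first probe measured 12.24, 12.00, 12.14, 12.16 and 11.72 in the nitrate mice and from 11.98 to 12.41 with a median of 12.10 in controls. Nitrate mice 1 to 4 lay within the range of the controls and nitrate mouse 5 lay below it. The difference was -0.10 with a 95% interval from -0.33 to 0.12 (limma, unadjusted P value 0.338; exact permutation test, 0.394), and -0.02 without nitrate mouse 5 (limma, unadjusted P value 0.822).

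The second Kdr probe measured 9.65, 9.43, 9.73, 9.84 and 9.60 in the nitrate mice and from 9.82 to 10.91 with a median of 10.14 in controls. All nitrate mice lay below 5 of the 6 controls, and nitrate mouse 4 was just above control 3. The second probe fell in old nitrate treated mice by 0.57 on the log2 scale with a 95% interval from -0.94 to -0.19 (9.65 ± 0.15, SD, n = 5, against 10.22 ± 0.40, SD, n = 6), a fold change of 1.48. The unadjusted limma P value was 0.00646 and the adjusted P value was 0.215 (exact permutation test, two-sided, 0.0108). This 1 probe of 11 called is 9.09% of the member probes, close to the 9.00% of all detected probes.

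The second Kdr probe has 10 spots on each array, so its measurement error within an array could be seen. The SD of the spots of an array lay between 0.0349 and 0.0755 with a median of 0.0470, well below the SD of 0.40 between control mice and of 0.15 between nitrate mice. The difference of the second probe was uneven across slides, at -0.996, -0.54 and -0.13, while that of the first was -0.05, -0.12 and -0.10. With the slide as a block it was -0.56 (exact permutation within slides, 0.0185). Control 1, the highest mouse, had a mean log2 level of striated muscle markers of 11.47, where the other controls had 8.51 or less. Nitrate mouse 4 had 11.94 and a value of 9.84 at the second probe, the highest of the nitrate mice. The part of these markers was not tested. Without control 1 the difference was -0.43, and the unadjusted limma P value stayed under 0.05 when any 1 mouse was left out (0.00278 to 0.0187).

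**Figure D3:**
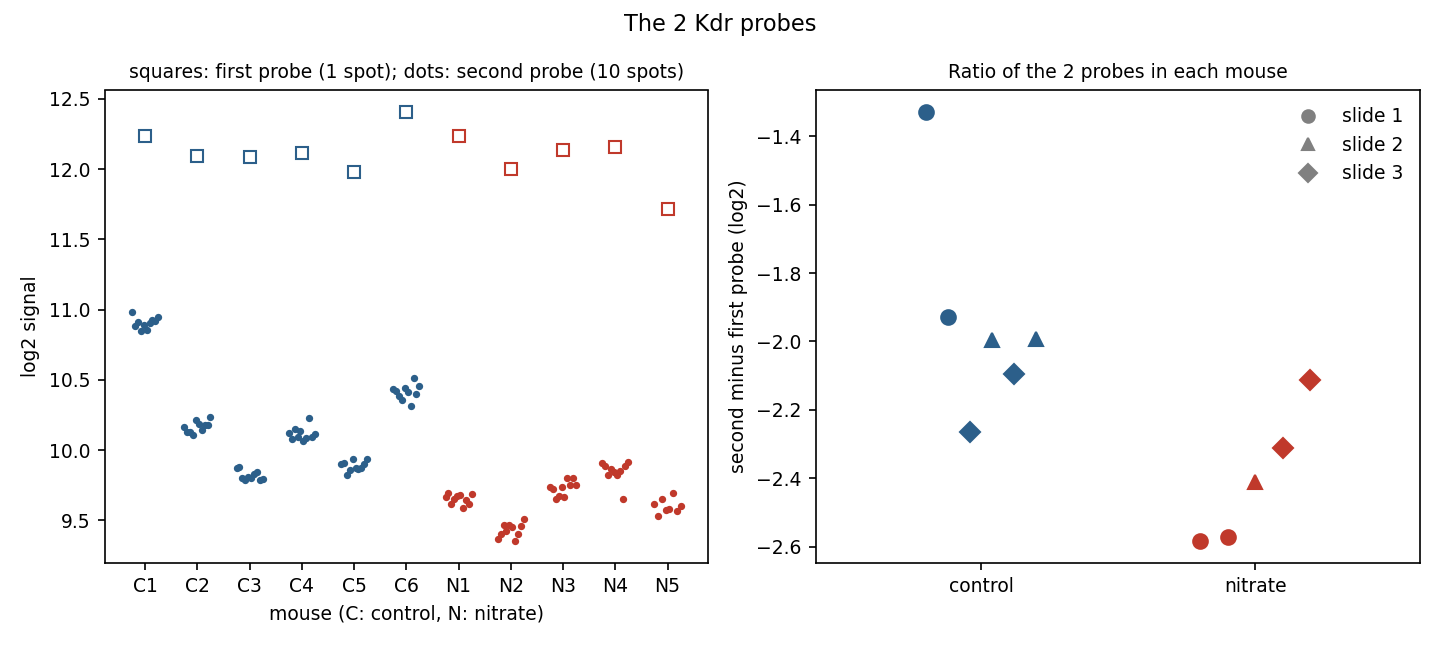
Left, log2 signal of the first Kdr probe (squares, 1 spot) and the second (dots, 10 spots) in each mouse. Right, second minus first probe (log2) in each mouse by group, with the symbol giving the slide; the group means were -2.40 for nitrate and -1.93 for control, and on slide 3 the groups lay close together.

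Since both probes were measured in the same RNA, the log2 of their ratio was taken in each mouse, a comparison chosen after the values of the probes had been seen. Only its difference between groups carries meaning, since the probes bind with unlike strength. The ratio was -2.58, -2.57, -2.41, -2.31 and -2.11 in nitrate mice 1 to 5, and from -2.27 to -1.33 with a median of -1.99 in controls. The groups overlapped, with nitrate mouse 5 and control 3 in the range of the other group. The difference of the ratio was -0.46 (-2.40 ± 0.20, SD, n = 5, against -1.93 ± 0.32, SD, n = 6; exact permutation test, two-sided, 0.0130).

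These values describe unequal change of the 2 probes and do not show which of them reflects the gene, and their P values are no independent evidence, since the ratio was formed because the probes had been seen to differ. Without control 1 the difference of the ratio was -0.34 (exact permutation test, 0.0159). It was -0.95 on slide 1, -0.41 on slide 2 and -0.03 on slide 3, and -0.47 with the slide as a block (exact permutation within slides, 0.0370). Each slide held only 1 or 2 mice of a group, so the slides give values without a test of their own. Averaged over both probes, Kdr had a difference of -0.34 with an unadjusted limma P value of 0.0184.

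From mouse to mouse, relations among the 10 genes were weak on the whole. Over the 45 pairs of members, each by its brightest probe, Pearson's r across the 11 mice had a median of 0.01 and ranged from -0.57 to 0.73, and 23 pairs were above 0. The pair with the highest value was Cdh5 and Emcn, with r of 0.73 (permutation p 0.0231) and Spearman's rho of 0.63 (permutation p 0.0436). Without the 2 mice farthest from the median of Cdh5, r was 0.30, so this relation rests on those mice. Pecam1 and Tek had r of 0.67 (permutation p 0.0242; rho 0.67) and 0.53 without the 2 farthest mice, and Cdh5 and Flt1 had r of 0.67 (permutation p 0.0360; rho 0.47) and 0.26. After Benjamini-Hochberg adjustment over the 45 pairs none passed, by either measure, and 3 had an unadjusted permutation p of Pearson's r under 0.05. With slide means removed the median r was -0.10. Control 1 had the highest value in 3 of the 10 genes and the lowest in 1.

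Outside the set, the genes whose pattern over the 11 arrays was most like the mean of the members, after each group was centred, were Snx5 (r = 0.97), Aqr (0.94), Mapk14 (0.91), Ttc16 (0.91) and Pcdhb7 (0.90). They were picked as the highest of 12204 genes, of which 5% exceeded 0.63, and the values are a description.

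**Figure D4:**
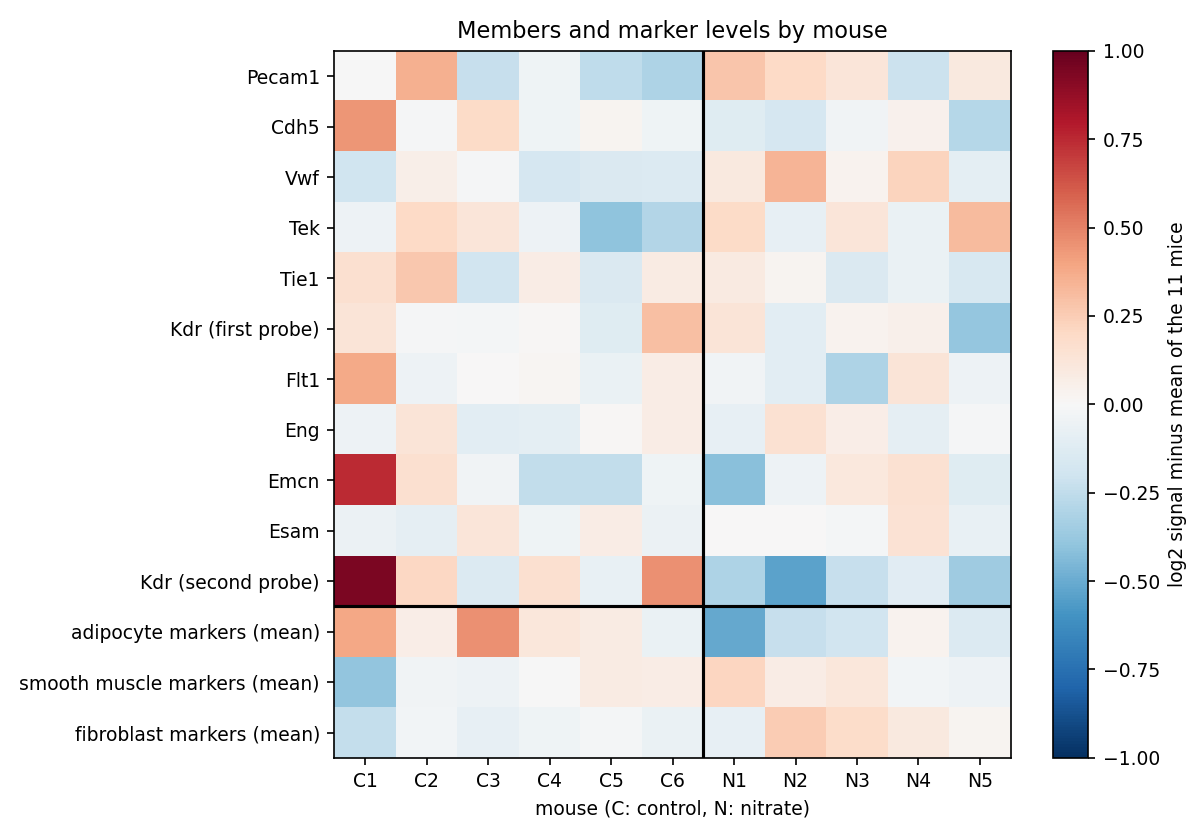
Log2 signal of each member minus its mean over the 11 mice (color) in 6 control and 5 nitrate mice (columns), with the mean of 3 marker lists below the line. Control 1 is high for Emcn, Cdh5, Flt1 and the second Kdr probe and low for the smooth muscle markers, and no column is high or low for all members.

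The samples carried the markers of a vessel wall, and adipocyte markers were detected as well. All 10 smooth muscle markers were detected, Acta2, Tagln and Cnn1 among them. Of these 10, 9 were higher in nitrate mice, as were 53.8% of all detected probes, with a median difference of 0.15 beside 0.01 over all detected probes, and 1 of them, Lmod1, rose past the threshold (limma, unadjusted P value 0.0209), as 4.16% of all detected probes did. All 10 fibroblast markers were higher, with a median of 0.18, of which none passed the threshold. All 10 adipocyte markers were lower, with a median of -0.29, and 4 of them fell past the threshold, as 4.85% of all detected probes did, among them Adipoq with a difference of -0.49. Their mean log2 level lay between 13.05 and 13.60 in nitrate mice and between 13.50 and 14.02 in controls, and those of nitrate mouse 4 and control 6 lay in the range of the other group.

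Each member probe was also set beside the mean of the adipocyte markers over the 11 mice, and no relation passed adjustment over the 11 probes. The other marker lists were not set beside the members in this way. The adjustment does not count the choice of this list, whose 10 markers were all lower in nitrate mice. Cdh5 had r of 0.77 (permutation p 0.00700, adjusted over 11 probes 0.0770) and rho of 0.77 (permutation p 0.00740, adjusted 0.0814). The value was 0.86 without the 2 mice farthest from the median, 0.84 with slide means removed and 0.63 with group means removed. The second Kdr probe had r of 0.58 (permutation p 0.0647, adjusted 0.228) and rho of 0.65, with 0.75 after slide means were removed and 0.14 after group means were removed. Vwf ran the other way, with r of -0.45 (permutation p 0.168) and rho of -0.64 (permutation p 0.0404, adjusted 0.148), though r was 0.06 with group means removed. Pecam1 had r of -0.51 (permutation p 0.111), and -0.34 with group means removed. Emcn had r of 0.55 and Flt1 of 0.54 (permutation p 0.0805 and 0.0828), and 0.60 and 0.38 with group means removed. The other members, Tek, Tie1, Eng, Esam and the first Kdr probe, had r between -0.33 and 0.21. The part of the adipocyte markers in these differences was not tested.

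Of other cells that could be in the samples, markers of striated muscle were higher in nitrate mice for 7 of 8 detected genes. Of all detected probes, 53.8% were higher. Their median difference was 0.67 for these markers, and none passed the threshold. The mean log2 level of these markers ranged from 7.52 to 11.94 in nitrate mice and from 7.04 to 11.47 in controls. The highest levels were those of nitrate mouse 4 and control 1, and the next in each group were 9.27 and 8.51. All 8 macrophage markers were detected, with a median of 0.10, and 4 of 5 erythroid markers, with a median of -0.45. Of the lymphatic endothelial markers, Pdpn, Lyve1 and Ccl21a were detected and Prox1 and Reln were not, and none of 5 mesothelial markers was. Of 8 lymphocyte markers 3 were detected and Cd79b fell, and of 5 Schwann cell markers 4 were detected and Mbp fell. The 6 brown adipocyte markers went both ways, with a median of 0.04. Cidea fell by 0.52 (limma, unadjusted P value 0.00642), as 4.85% of all detected probes fell past the threshold. Ucp1, Elovl3 and Dio2 had differences of 0.23, 0.23 and 0.31, and Cox8b and Cpt1b of -0.35 and -0.15, none of which passed. The part of these cells in the members' values was not tested.

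The wider endothelial program was read from 5 lists of 85 genes in all that act with the members or share their cell type. Of these, 74 were detected, of which 36 were higher and 38 lower, with a median difference of -0.01. The threshold was passed by 4 that rose, beside 4.16% of all detected probes, and by 12 that fell, beside 4.85%. At an unadjusted limma P value under 0.05 alone there were 7 higher, beside 7.71%, and 13 lower, beside 6.66%. None passed adjustment, and the smallest adjusted limma P value was 0.0940. These 16 genes are 21.6% of the detected ones, beside 9.00% of all detected probes, and these lists too were chosen with earlier results known. The adipocyte markers were lower in the same nitrate mice, with a median of -0.29, and their part in the lower endothelial genes was not tested.

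**Figure D5:**
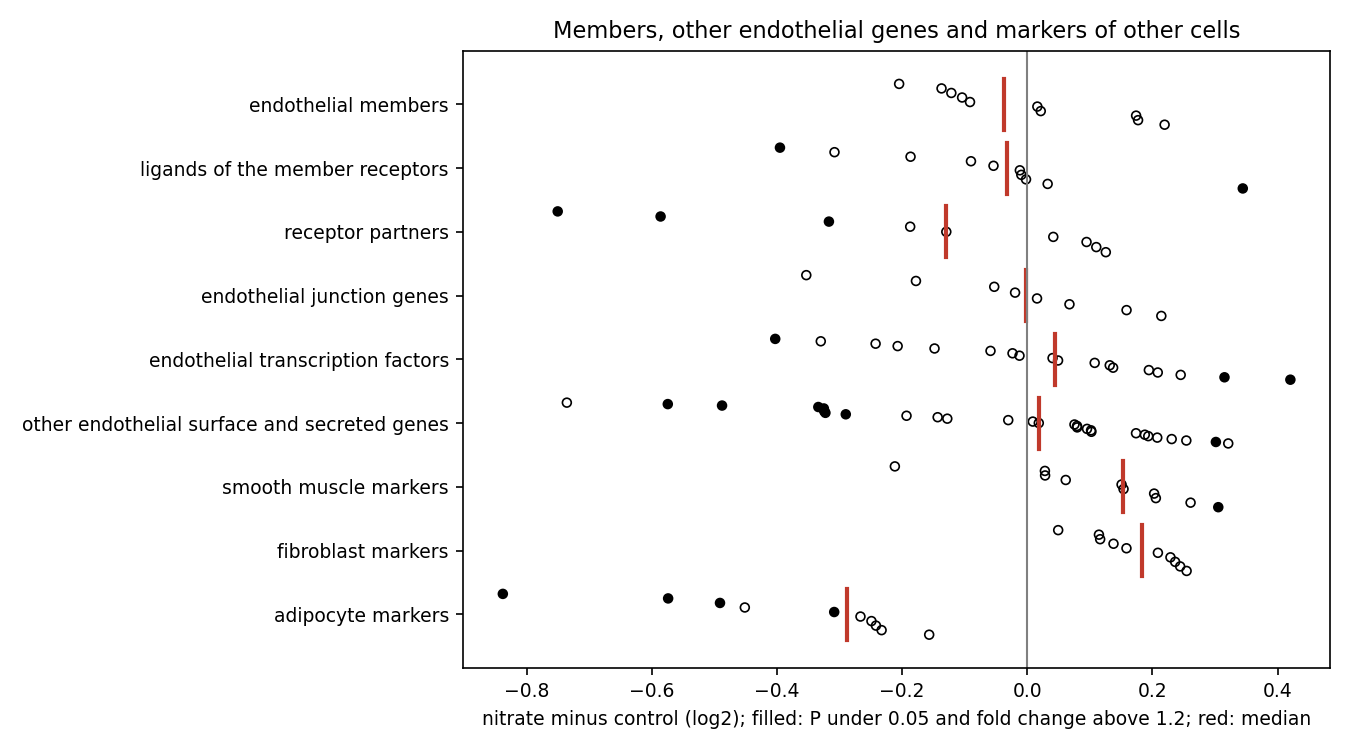
Difference between nitrate and control means (log2, horizontal axis) of each detected gene, by its brightest probe, in the member set, the 5 related endothelial lists and 3 marker lists (vertical axis), with filled points past both thresholds and red lines at the medians. The receptor partners have 3 filled points, all below 0, and the 10 adipocyte markers all lie below 0.

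Among ligands of the member receptors, 10 of 12 were detected, with a median difference of -0.03, 1 rose and 1 fell, beside 4.16% and 4.85% of all detected probes. Vegfb, a ligand of Flt1, fell by 0.40 on the log2 scale (10.66 ± 0.12, SD, n = 5, against 11.06 ± 0.10, SD, n = 6), and every nitrate mouse lay below every control (limma, unadjusted P value 0.000202, adjusted 0.0940; exact permutation test, 0.00216). The difference on the slides was -0.63, -0.28 and -0.26. Angpt2, a ligand of Tek that endothelial cells store and release, rose by 0.34 (10.58 ± 0.14, SD, n = 5, against 10.23 ± 0.23, SD, n = 6; limma, unadjusted P value 0.0103, adjusted 0.242), with 0.30, 0.28 and 0.45 on the slides. Vegfa, the main ligand of Kdr, had a difference of -0.19 (limma, unadjusted P value 0.245) and Angpt1, the activating ligand of Tek, of -0.31 (0.0836). Gdf2 and Bmp10, ligands in the pathway of Eng, were not detected.

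Of 10 partner genes of these receptors, 9 were detected, with a median difference of -0.13, and 3 fell, where 4.85% of all detected probes did. Nrp2, a co-receptor for VEGF and semaphorins, fell by 0.75 (8.17 ± 0.32, SD, n = 5, against 8.92 ± 0.17, SD, n = 6; limma, unadjusted P value 0.000182, adjusted 0.0940), and its other probe, which did not meet the detection rule, had a difference of -0.55. Robo4, an endothelial guidance receptor, fell by 0.59 (limma, unadjusted P value 0.00754), and Sema3g, a secreted semaphorin, by 0.32 (0.0189), with -0.36 on its other probe (0.0724). The difference of Robo4 on the slides was -0.85, -0.57 and -0.39. Ptprb, the phosphatase that acts on Tek and Cdh5, had a difference of 0.04, and Acvrl1, the receptor that works with Eng, of 0.11.

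Of the 12 other junction genes 8 were detected, and none passed the threshold. Jam3, a junctional adhesion molecule, was 0.21 higher, below the fold threshold, with all nitrate mice above all controls (limma, unadjusted P value 0.0278, and exact permutation test, 0.0108). Its limma P value lay above 0.05 in 3 of the 11 fits that left out 1 mouse (up to 0.0714). Among the other processing settings it reached 0.0538. Cldn5, the claudin of endothelial tight junctions, had a difference of -0.35 (limma, unadjusted P value 0.127), and Icam2 of 0.16 (0.0983).

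All 18 transcription factor genes were detected, with a median of 0.04, 2 rose (4.16% of all detected probes) and 1 fell (4.85%). Heyl and Hey2, targets of Notch signaling that are also expressed in smooth muscle, rose by 0.42 (limma, unadjusted P value 0.00684) and 0.32 (0.0153). Sox18, a factor of endothelial and lymphatic development, fell by 0.40 (0.0192), with P values of 0.0542 without nitrate mouse 2 and 0.0527 without nitrate mouse 3. Ets1 had a difference of -0.24 (0.0464), below the fold threshold and with an exact permutation p of 0.0563, and of -0.22 on its other probe. Its P value was 0.0668 with the slide as a block and lay above 0.05 in 8 of the 11 fits that left out 1 mouse (up to 0.131). Erg, a factor that maintains endothelial identity, had a difference of 0.14 (limma, unadjusted P value 0.145), and Klf2, which responds to flow, of 0.13 (0.659).

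Of 33 other surface and secreted genes 29 were detected, with a median of 0.02, 1 rose (4.16% of all detected probes) and 7 fell (4.85%). Gpihbp1, which holds lipoprotein lipase on the capillary wall of fat and muscle, fell by 0.57 with every nitrate mouse below every control (10.50 ± 0.26, SD, n = 5, against 11.08 ± 0.23, SD, n = 6; limma, unadjusted P value 0.00131, adjusted 0.146). Tmem88 fell by 0.49 (limma, unadjusted P value 0.00814), Dll4, a Notch ligand, by 0.33 (0.0311), Cd93 by 0.33 (0.00466), Rasip1, a regulator of vessel lumen formation, by 0.32 (0.00655), Adgrl4, listed in the files as Eltd1, by 0.32 (0.0420, exact permutation p 0.0541), and S1pr1, the receptor for sphingosine-1-phosphate, by 0.29 (0.0370). Plvap, of the diaphragms of fenestrated capillaries, rose by 0.30 (0.0496), though the exact permutation p was 0.0887, and its other probe was also at 0.30. Cd34 and Thbd were higher by 0.21 and 0.19 (limma, unadjusted P values 0.00991 and 0.0373), below the fold threshold, and the other probe of Cd34 was at 0.15. For Thbd the P value lay above 0.05 in 8 of the 11 fits that left out 1 mouse (up to 0.0881) and was 0.153 with the replicate number as a block. Among the other processing settings, the highest limma P values of S1pr1 and Cd34 were 0.107 and 0.0511. The P values of Dll4, Adgrl4, S1pr1 and Plvap lay above 0.05 in 6 of the 11 fits that left out 1 mouse, with highest values of 0.0790, 0.107, 0.0909 and 0.126. After normexp background correction Dll4 was at -0.14 (0.0820) and Adgrl4 at -0.20 (0.0439), and on the slides Dll4 was at -0.78, 0.01 and -0.07. Nos3, the endothelial nitric oxide synthase, had a difference of -0.13 (0.273).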

How the data were processed

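RNA of the descending aorta of 5 old nitrate treated and 6 old control mice was measured on one-color Agilent arrays. For each array, the authors deposited background-subtracted spot intensity values and quality flags made by Feature Extraction 10.7.1.1. A deposited table of log2 values, quantile normalized and centred on the median of the 11 arrays, served as an alternative. The members and gene lists were chosen with earlier results of these data known.

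Control spots and spots with an outlier flag were removed, signals below 1 were set to 1, log2 was taken, repeated spots of a probe were replaced by their mean, and quantile normalization followed. A probe was detected when, in 1 of the groups, 5 or more arrays had it found and well above background. Detected probes were tested with lmFit and eBayes in limma 3.58.1 (R 4.3.3), after the moderated test of the study. The thresholds were a fold change above 1.2 and an unadjusted P value under 0.05. Benjamini-Hochberg adjustment ran over all detected probes. Single values have exact permutation tests over the 462 divisions of the mice, and correlations have 100000 permutations. Permutations within slides were added after seeing the data. Scripts were tested on simulated data. Where a gene has several probes, its brightest detected probe stands for it. Other probes are given only for members and for genes of the endothelial lists with an unadjusted limma P value under 0.05. Vegfa, Erg, Ptprb and Nos3 had 2 detected probes, of which only the brightest is given.

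The genes named are all members, genes of the endothelial lists with an unadjusted P value under 0.05, up to 3 bright examples of each list, the 2 or 3 brightest markers of a cell type, and the 5 genes most like the member mean. Angpt1, Acvrl1, Erg, Nos3, Lmod1, Elovl3, Dio2 and Cpt1b were named beyond this rule, after their values were seen. Positions are those of the files, in mm9, and gene names are those of the files, with Adgrl4, Adgrf5 and Adgre1 found under older symbols with the help of RefSeq (GRCm38). Arrays give no read depth, and their number limits the precision. Alternatives covered background correction, the scaling of arrays, an added offset of 16, the table of deposited values, rules of detection, flagged spots, slide and replicate number as blocks, the choice of probe, and each mouse left out.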

Additional observations from a re-analysis of the deposited data

Results flagged for a closer look

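Values of a probe, or of the Kdr ratio, in 1 group of mice were tested for a value far from the rest. In 6 of 64 such sets 1 mouse stood apart, where chance gives 3.2 for independent sets. These sets come from the same 11 mice, and many are of the 20 genes picked by their P values, so 3.2 is a rough guide. The number given is the gap of that mouse to the nearest mouse as a share of the range of its group. Control 1 was high for Flt1 (0.685) and for the ratio of the Kdr probes (0.64), and low for Hey2 (0.636). Control 2 was high for Heyl (0.7). Nitrate mouse 5 was low for Cd34 (0.756), and nitrate mouse 3 was low for Thbd (0.771). Control 1 also had a mean log2 level of smooth muscle markers of 13.44, where the other controls had 13.78 or more, and a mean of brown adipocyte markers of 13.75, where the other controls had 13.00 or less. Its mean of striated muscle markers was 11.47, where the other controls had 8.51 or less and nitrate mouse 4 had 11.94, and its mean of platelet markers was 8.88, where the other controls had 8.30 or less and nitrate mice 1, 2 and 3 had 8.78 to 8.85. The part of these markers in its values was not tested.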

How the results depend on the processing

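The number of transcripts past both thresholds was 2128, with 46.1% of them higher in nitrate mice. It was 1218 after normexp background correction, with 35.8% higher, and 3224 with no detection filter. It ranged from 1596 (without control 1) to 2424 (without control 6) when 1 mouse was left out. Labels give both groups replicate numbers, and the arrays of both groups numbered 1, 2 and 5 shared a slide and a slide row. For numbers 1 to 5, correlations of deviations from the group means were 0.01, 0.12, -0.14, -0.13 and 0.18. Of 10 arrays, 2 correlated best with their own number. These values do not settle whether the numbers pair the mice. With replicate number as a block the number of transcripts was 2433 and no member gene passed, and control 6, which has no partner, dropped out. With the slide as a block it was 2462.

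The number of member genes past both thresholds was 0, and 1 (Kdr, -0.34) when probes of a gene were averaged. When 1 mouse was left out it ranged from 0 to 1, the 1 being Vwf (0.27, limma, unadjusted P value 0.00756) without nitrate mouse 5 or Pecam1 (0.26, limma, unadjusted P value 0.0272) without control 2. Vwf lost an unadjusted limma P value under 0.05 without nitrate mouse 2 (0.0751), nitrate mouse 4 (0.0621) or control 4 (0.0507). Cdh5 gained it after normexp correction (0.0484), without nitrate mouse 4 (0.0420) and without control 6 (0.0480), and its P value rose to 0.149 without nitrate mouse 5. The second Kdr probe kept it in every alternative run, with differences from -0.65 to -0.43. The difference of the Kdr probe ratio ranged from -0.53 to -0.34 when 1 mouse was left out, from -0.46 to -0.41 under 7 other settings, and was -0.47 with the slide as a block. Signs turned for Eng after normexp correction (-8.84e-05) and without nitrate mouse 2, control 3 or control 4 (range with 1 mouse left out -0.0205 to 0.0433), for Esam without nitrate mouse 4 (range -0.0112 to 0.0478), and for Emcn without control 1 (range -0.182 to 0.0169). A rule of detection on all 11 arrays left Cdh5 and Emcn untested. Of the values of the 20 other endothelial genes with an unadjusted P value under 0.05, 340 stayed under it in the alternatives, 60 did not (most often Ets1, Thbd, Plvap and Dll4), and none turned sign. The causes of these changes were not tested.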
